A study of Mus musculus with 9 samples.

Results

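The genes described here encode the nuclear subunits of the oxidative phosphorylation system, the 5 enzyme complexes of the inner mitochondrial membrane together with the electron carrier cytochrome c. Members were the protein-coding genes of the GENCODE M21 mouse annotation whose symbols begin as those of the Nduf, Sdh, Uqcr, Cyc1, Cycs, Cox4 to Cox8 and Atp5 families do. The rule took 87 of 55401 genes, and no measured value entered it. Complex I had 35 members, complex II 4, complex III 9, complex IV 20, complex V 18, and cytochrome c was a single gene. Ndufa4 and Ndufa4l2 were counted with complex IV, where the NDUFA4 protein is now placed. Of the 87 members, 81 were abundant enough to be tested, among 13501 genes tested in all.

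Oxidative phosphorylation passes electrons from NADH (through complex I) and from succinate (through complex II) to ubiquinone, on to complex III, then by cytochrome c to complex IV, which reduces oxygen. Complexes I, III and IV pump protons out of the matrix, and complex V, the ATP synthase, makes ATP as the protons flow back. Most subunits are encoded in the nucleus, while the hydrophobic cores of complexes I, III, IV and V are encoded by mitochondrial DNA. In macrophages, alternative activation by interleukin-4, which signals through STAT6, is known to go with high oxidative metabolism, and inflammatory activation with glycolysis.

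Poly(A) RNA was sequenced from primary mouse peritoneal macrophages, which had been drawn into the cavity by thioglycollate, an irritant, and were kept in culture. The 3 groups of 3 libraries were wild type (WT), Stat6S807A/S807A (SA), in which alanine replaces the serine at residue 807 of both Stat6 copies and cannot be phosphorylated, and Stat6S807E/S807E (SE), in which glutamate supplies a negative charge there. The labels give no cytokine or other treatment and no age. They are also silent on how many animals the libraries represent, and the p-values then measure only the spread between these samples, which may be technical. An amino acid exchange leaves no mark in a gene's total count, so the genotypes could not be checked from these values. Stat6 mRNA itself was at 198, 201 and 187 CPM in WT, against 194, 199 and 199.6 in SA and 291, 284 and 312 in SE, and was higher in SE than in WT by 0.60 ± 0.06 log2 (adjusted p = 6.27e-06).

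Libraries held 17286617 to 24618608 counts, and levels are given as CPM, counts relative to the TMM-scaled library total. The summed level of 10 macrophage markers was 25610 to 30500 CPM in WT, 25330 to 26310 in SA and 25860 to 28090 in SE, with 3 of the 10 called lower and 1 higher in SE against WT, 2 lower in SE against SA and 2 higher in SA against WT. The 10 mesothelial and fibroblast markers summed to 2.55 to 3.95 CPM in WT, 34.1 to 38.5 in SA and 5.99 to 9.94 in SE, with Krt19, Msln and Wt1 at 0 counts throughout. Of these 10, 3 were called higher in SA against WT and 3 lower in SE against SA, and their part in the values below was not tested. B cell markers summed to 1.04 to 1.72 CPM in WT, 1.23 to 1.54 in SA and 0.465 to 0.833 in SE, with Pax5 at 0, and T and NK cell markers to at most 0.599 CPM in any library. SE also lay apart without overlap in the sums of 3 other low lists. Markers of resident large peritoneal macrophages summed to 5.86 to 6.33 CPM in WT, 7.001 to 7.136 in SA and 7.48 to 7.84 in SE, and neutrophil markers to 2.37 to 2.79, 2.49 to 3.131 and 3.135 to 3.43 CPM in the same order, with Ly6g at 0. Dendritic cell markers summed to 1.56 to 1.82 CPM in WT, 1.58 to 2.91 in SA and 1.23 to 1.41 in SE, with 1 called lower in SE against SA. Eosinophil markers summed to 31.3 to 34.96 CPM in WT, 24.1 to 29.5 in SA and 26.5 to 33.3 in SE, with Ear1 at 0. Of these, 1 was called lower in SA against WT, and 1 higher and 1 lower in SE against SA. Red cell and platelet markers summed to 24.7 to 31.01, 20.6 to 25.04 and 27.3 to 31.05 CPM in the same order, with 1 called higher in SE against SA. The part of these lists in the results was not tested. In a bulk sample, fewer cells of a type and less RNA per cell cannot be told apart. Among the WT libraries, WT1 and WT2 stood on opposite sides. Over all tested genes the deviations of WT2 from its group mean correlated with those of SE3 (r = 0.27), and those of WT1 with those of SE2 (r = 0.178), across genes, which are not independent replicates.

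In SE, the nuclear subunits of all 5 complexes were more abundant in sum than in SA, with a median log2 change of 0.18 per gene. The 81 tested members and the 6 others together summed to 7322, 8298 and 7827 CPM in WT, against 7614, 7458 and 7742 in SA and 8626, 8550 and 8867 in SE. Every SE library lay above every WT and SA library, while the WT libraries spread from below the SA libraries to above them. The summed level was 7816 ± 488 CPM in WT, 7605 ± 142 in SA and 8681 ± 166 (SD, n = 3 each) in SE. Relative to each gene's mean over the 9 libraries, the median member lay at a log2 deviation of -0.13 in WT1, 0.04 in WT2 and -0.02 in WT3, against -0.09 to -0.05 in SA and 0.10 to 0.11 in SE. The summed level of cytosolic ribosomal protein genes, another set of short abundant transcripts, was 30910 ± 1785 CPM in WT, 29490 ± 784 in SA and 31740 ± 170.0 (SD, n = 3 each) in SE, and that of mitochondrial ribosomal protein genes 1761 ± 19.2 CPM in WT, 1781 ± 38.7 in SA and 1892 ± 59.4 (SD, n = 3 each) in SE.

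**Figure D1:**
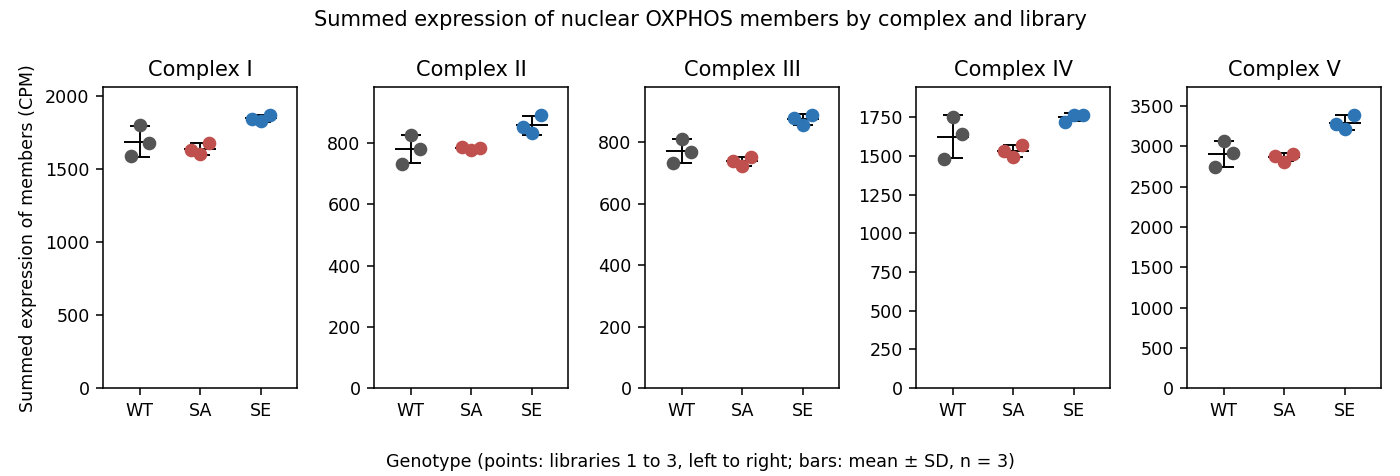
Summed expression of the members of complexes I to V (y axis, CPM, from 0) in each library of WT, SA and SE (x axis). Points are libraries 1 to 3 from left to right, and bars are the mean ± SD (n = 3). The SE libraries lie above the SA libraries in all 5 panels, and in complex IV the WT2 library (1754 CPM) lies within the SE range of 1719 to 1767 CPM.

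By complex, the summed level of complex I was 1686 ± 107 CPM in WT, 1637 ± 40.0 in SA and 1846 ± 23.6 (SD, n = 3 each) in SE. That of complex II was 781 ± 47.0 CPM in WT, 784 ± 5.08 in SA and 859.5 ± 31.0 (SD, n = 3 each) in SE. Complex III summed to 772 ± 40.1 CPM in WT, 739 ± 14.5 in SA and 875 ± 17.3 (SD, n = 3 each) in SE. SE lay above both other groups without overlap in complex III and also in complexes I, II and V. In complex II the lowest SE library was at 832.7 CPM and the highest WT library at 827 CPM. Complex IV summed to 1624 ± 138 CPM in WT, 1531 ± 37.5 in SA and 1749 ± 26.4 (SD, n = 3 each) in SE, with WT2 inside the range of SE. Complex V, the most abundant, summed to 2906 ± 161 CPM in WT, 2867 ± 49.97 in SA and 3294 ± 91.3 (SD, n = 3 each) in SE. Cytochrome c was at 46.9 ± 2.80 CPM in WT, 47.4 ± 2.65 in SA and 57.0 ± 5.32 (SD, n = 3 each) in SE, with libraries of SE at 50.9 to 60.2 CPM and all other libraries at or below 49.9 CPM.

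Each member was tested in a single fit over all genes with edgeR's quasi-likelihood test, and called where its p, adjusted over the 13501 genes by the Benjamini-Hochberg method, was under 0.05. All adjusted p-values below come from that fit, and fold changes are its log2 fold changes, given with their standard error. The comparisons share groups: SE enters 2 of them, and so do WT and SA, so that their values for a gene are not independent.

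In SE against SA, 25 members were called higher and 0 lower, 30.9% of those tested, against 10.2% of all tested genes called in either direction, 4.77% higher and 5.42% lower. The fitted change was above 0 for 75 of 81 members, against 49.4% of all genes, and its median was 0.18, against -0.003 over all tested genes. For 51 members every SE library lay above every SA library, against 14.3% of all genes. At an unadjusted p under 0.05, 41 members were higher and 0 lower, against 1535 higher and 1532 lower of all 13501 tested genes. DESeq2 also called 25 members higher and 0 lower.

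In SE against WT, 10 members were called higher and 0 lower, 12.3% of those tested, against 5.04% of all tested genes called, 2.35% higher and 2.69% lower. The change was above 0 for 76 of 81 members, against 49.2% of all genes, with a median of 0.14. In 21 members every SE library lay above every WT library, against 10.1% of all genes. At an unadjusted p under 0.05, 30 members were higher and 2 lower, against 1218 higher and 1249 lower of all 13501 tested genes. The call depended on single libraries, since leaving out WT1, WT3 or SE1 left 0 of these members called and leaving out WT2 gave 26, while the median change stayed between 0.09 and 0.18 under each library left out.

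In SA against WT, edgeR called 0 members in either direction, against 4.07% of all tested genes (1.97% higher and 2.1% lower), and DESeq2 called 0 as well. The change was above 0 for 27 members and below 0 for 54, against 50.4% of all genes above 0, with a median of -0.04. Every SA library lay below every WT library in 6 members and above in 1, against 9.72% and 9.6% of all genes. At an unadjusted p under 0.05, 5 of 81 members were lower and 0 higher: Ndufa3, Ndufc1, Ndufs5, Uqcrh and Atp5k. Of all 13501 tested genes, 945 were lower and 903 higher at that level. With no filter on low counts Atp5k and Ndufa3 were called lower, and without the libraries WT2 and SE3 so were Ndufc1 and Uqcrh.

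**Figure D2:**
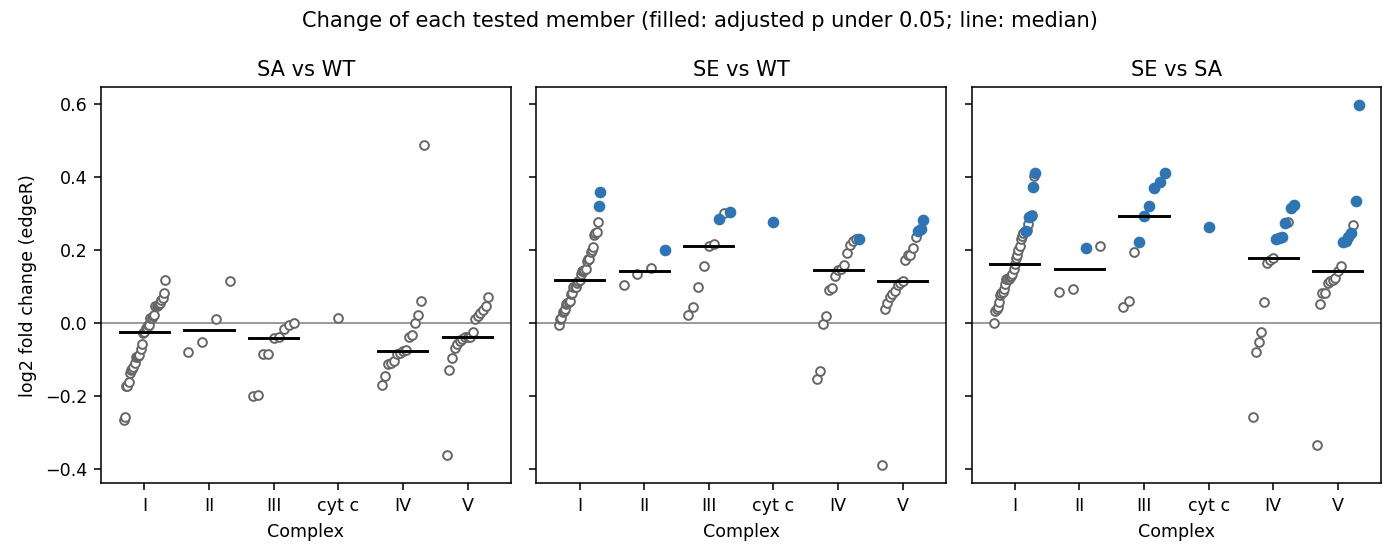
log2 fold change (y axis, edgeR) of each of the 81 tested members, sorted within its complex (x axis), in SA against WT, SE against WT and SE against SA. Filled points have an adjusted p under 0.05, open points do not, and lines are medians of the complexes with more than 1 member. No point is filled in SA against WT, and all filled points in the other panels lie above 0; complex III has the highest median in SE against SA, 0.29.

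Promoter sequence was read for the 69 members with a window of 300 bases (250 before the start to 50 after) in the RefSeq table for GRCm38.p6. The motif of NRF1, a factor known for driving genes of the respiratory chain, was searched on both strands as the letters GCATGCGC preceded by GC, a run that is its own reverse complement. It was present in 5 of 69 members (7.25%), Ndufa11, Uqcrc1, Cox6a1, Atp5k and Atp5g2, against 2.47% of tested genes and 1.07% of all genes with a window. The 8 letters GCATGCGC alone, which lie inside the longer run, were searched after the longer one was seen to miss Cycs. They were present in 11 members (15.9%), against 6.23% of tested and 3.05% of all genes, and Cycs is among them. The YY1 motif AAGATGGC was present in 10 members (14.5%), against 5.62% of tested and 3.19% of all genes. The ETS motif CCGGAAG was present in 16 members (23.2%), against 21.3% and 9.93%. The STAT6-type motif, TTC and GAA with 4 bases between them, was present in 4 members (5.80%), Ndufa9, Cox6b1, Ndufc1 and Uqcrfs1, against 6.68% and 8.01% of genes. Members called higher in SE against SA were 7 of the 11 with the 8-letter run, 2 of 10 with the YY1 motif, 6 of 16 with the ETS motif and 0 of 4 with the STAT6-type motif, against 25 of all 81 tested members, and in SE against WT 2, 0, 0 and 0, against 10 of 81. The 81 include members without a window, which were not searched, among them the called Cyc1, Uqcrq and Atp5a1. Cycs, which led to the 8-letter search, is 1 of the 7, so nothing is read from that count. A match is a run of letters and no record of binding. The sequences below show where the NRF1 letters fall in 3 called members, 1 each from complex I, complex IV and cytochrome c. Each runs 5′ to 3′ on the gene's strand, from base -200 to base -51 relative to the RefSeq start, and capitals mark the letters of GCATGCGC matches on either strand. Ndufa11 is at chr17:56717562-56717711 on the plus strand, Cox6a1 at chr5:115349009-115349158 and Cycs at chr6:50566620-50566769, both on the minus strand.
Ndufa11: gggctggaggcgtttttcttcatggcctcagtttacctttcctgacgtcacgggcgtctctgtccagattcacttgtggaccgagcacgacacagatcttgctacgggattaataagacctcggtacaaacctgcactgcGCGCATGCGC
Cox6a1: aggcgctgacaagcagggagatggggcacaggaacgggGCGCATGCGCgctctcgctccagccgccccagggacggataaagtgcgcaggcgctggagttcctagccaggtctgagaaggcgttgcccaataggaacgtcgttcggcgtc
Cycs: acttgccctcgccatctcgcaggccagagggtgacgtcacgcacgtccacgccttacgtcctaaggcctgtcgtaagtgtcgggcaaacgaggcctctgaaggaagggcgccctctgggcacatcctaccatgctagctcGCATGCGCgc
The 10-letter run is whole in Ndufa11 and Cox6a1, and Cycs holds the 8-letter form in its last bases shown.

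In complex I, which takes electrons from NADH, 5 of 35 members were called higher in SE against SA and 2 in SE against WT, with median changes of 0.16 and 0.12. These counts are 14.3% and 5.71% of the complex, against 10.2% and 5.04% of all tested genes called in either direction. Called higher were 4.77% and 2.35% of all tested genes. The share in SE against WT is near that called in either direction, above that called higher, and rests on 2 genes. Ndufa11, an accessory subunit of the membrane arm at chr17:56717767-56722141 (plus strand, ENSMUSG00000002379), was called in both. Its level was 27.5, 32.9 and 29.4 CPM in WT, against 28.9, 30.8 and 29.1 in SA and 38.3, 34.9 and 41.6 in SE. All 3 SE libraries were above the 6 others, by 0.36 ± 0.08 log2 (adjusted p = 0.0167) over WT and 0.37 ± 0.08 log2 (adjusted p = 0.00787) over SA. Exons of Ndufa11 overlap Vmac on the opposite strand (5.53 CPM), and how the authors' counting treated strand is not given in the sources used here.

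Ndufs6, a zinc-binding accessory subunit of the matrix arm, was at 23.0, 29.5 and 26.8 CPM in WT, against 24.1, 20.7 and 25.3 in SA and 29.9, 31.2 and 32.2 in SE. SE was above SA without overlap (log2 change 0.41 ± 0.10, adjusted p = 0.0103), and WT overlapped both. Its exons overlap Mrpl36 on the opposite strand, which was nearly as abundant (24.5 CPM). Ndufv1, the core subunit that binds NADH and the flavin, was at 68.8, 84.6 and 71.9 CPM in WT, against 66.9, 65.2 and 74.8 in SA and 85.8, 80.8 and 86.6 in SE. SE exceeded SA by 0.29 ± 0.08 log2 (adjusted p = 0.0249), with WT2 among the SE values. Ndufs5 and Ndufb4, accessory subunits of the membrane arm, were higher in SE than in SA by 0.29 ± 0.07 log2 (adjusted p = 0.0190) and 0.25 ± 0.08 log2 (adjusted p = 0.0428).

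Ndufa12, an accessory subunit of the matrix arm, passed the threshold in SE against WT and not in SE against SA. Its level was 31.6, 40.5 and 34.7 CPM in WT, against 38.6, 35.2 and 37.9 in SA and 43.3, 44.3 and 45.4 in SE. SE lay above WT by 0.32 ± 0.08 log2 (adjusted p = 0.0324), while its change against SA was 0.25 ± 0.08 log2 (adjusted p = 0.0650). The difference between these changes is that of SA against WT, 0.07 ± 0.08 log2 (adjusted p = 0.825).

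Ndufs7, the core subunit that holds the last iron-sulfur cluster before ubiquinone, was not called and varied between libraries, at 69.9, 100.2 and 72.2 CPM in WT, against 70.9, 65.0 and 85.5 in SA and 92.8, 90.1 and 109.8 in SE, with 0.40 ± 0.14 log2 (adjusted p = 0.0900) in SE against SA. Ndufs1, a further core subunit, had a change of 0.04 in the same comparison. Among members of this complex Ndufa7, an accessory subunit, had the highest level per kilobase of transcript, 114 CPM per kb, and its change in SE against SA was 0.24 ± 0.08 log2 (adjusted p = 0.0561). The smallest p of the complex in SA against WT was that of Ndufc1, a membrane arm subunit, at 25.02, 24.3 and 26.5 CPM in WT, against 21.5, 20.2 and 21.7 in SA and 26.6, 26.4 and 22.5 in SE. Every SA library was below every WT library (log2 change -0.26 ± 0.08, adjusted p = 0.114), and in SE against WT the change was -0.00 ± 0.08 log2 (adjusted p = 0.986). By arm, 2 of 16 members of the matrix arm and 3 of 19 of the membrane arm were called in SE against SA, with medians of 0.14 and 0.19. These counts are 12.5% and 15.79% of the arms, against 10.2% of all tested genes. Ndufb2, whose exons overlap the more abundant Braf on the opposite strand, was the single member of the complex with a change below 0 there (-0.0004).

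Complex II, succinate dehydrogenase, is also an enzyme of the TCA cycle and has no mitochondrially encoded subunit. Its 4 genes were above 0 in both SE comparisons, with 1 called higher in each. Of all tested genes, 4.77% were called higher in SE against SA and 2.35% in SE against WT. In either direction, 10.2% and 5.04% were called. As each count in this complex rests on 1 gene, nothing is read from it. Sdhb, the iron-sulfur subunit and the most abundant per kilobase (144 CPM per kb), was at 148, 167 and 166 CPM in WT, against 155, 155 and 153 in SA and 180.1, 166 and 187 in SE. SE exceeded SA by 0.20 ± 0.06 log2 (adjusted p = 0.0481), close to the threshold. Sdhc, a membrane anchor, was at 163, 166 and 158 CPM in WT, against 181, 176 and 171 in SA and 182, 184 and 193 in SE. It was the only gene of the complex with WT below both mutants in every library, by 0.20 ± 0.06 log2 (adjusted p = 0.0446) in SE and 0.11 ± 0.06 log2 (adjusted p = 0.375) in SA. Sdha, the flavoprotein that oxidises succinate, and Sdhd, the other anchor, were not called, with changes of 0.09 and 0.21 in SE against SA.

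Complex III, the cytochrome bc1 complex, had the largest share of called members in SE against SA, 6 of 9 (66.67%, against 10.2% of all tested genes). It also had the highest median change in both SE comparisons, 0.29 against SA and 0.21 against WT. Differences between complexes were not tested. Cyc1, cytochrome c1, which hands electrons to cytochrome c, lies at chr15:76343523-76346260 (plus strand, ENSMUSG00000022551). Its level was 88.2, 113 and 97.9 CPM in WT, against 90.4, 91.0 and 101 in SA and 122, 119 and 124 in SE. SE was above SA by 0.37 ± 0.08 log2 (adjusted p = 0.00546) and above WT by 0.29 ± 0.08 log2 (adjusted p = 0.0436), and no library of SE overlapped the others. Uqcrc1, a core protein on the matrix side, was at 196, 221 and 199.5 CPM in WT, against 203, 198 and 213 in SA and 237, 223 and 256 in SE, with 0.22 ± 0.07 log2 (adjusted p = 0.0386) in SE against SA.

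Of the 5 small subunits around the catalytic core, 4 were called in SE against SA, and the median change of all 5 was 0.32. Uqcrq, a subunit that contacts cytochrome b (chr11:53427922-53430831, minus strand, ENSMUSG00000044894), was at 56.1, 65.6 and 62.9 CPM in WT, against 58.8, 61.8 and 61.6 in SA and 77.5, 74.9 and 75.2 in SE. Each SE library was above all 6 others, by 0.30 ± 0.07 log2 (adjusted p = 0.0119) over WT and 0.32 ± 0.07 log2 (adjusted p = 0.00487) over SA. Uqcrh, the hinge protein that contacts cytochrome c1 (chr4:116066965-116075071, minus strand, ENSMUSG00000063882), had the highest level per kilobase of the complex, 174 CPM per kb.

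Uqcrh was at 93.6, 96.2 and 102 CPM in WT, against 88.2, 84.0 and 81.9 in SA and 109, 101 and 101 in SE. It had the smallest p of all members in SE against SA (log2 change 0.29 ± 0.06, adjusted p = 0.00481) and also in SA against WT, where SA was below WT in every library without passing the adjusted threshold (log2 change -0.20 ± 0.06, adjusted p = 0.0983). Uqcr10 and Uqcr11, the smallest subunits of the complex, rose in SE against SA by 0.39 ± 0.09 log2 (adjusted p = 0.0106) and 0.41 ± 0.10 log2 (adjusted p = 0.0157). For both, the WT libraries lay between or across the 2 mutants, with WT2 (58.4 CPM for Uqcr10 and 61.8 CPM for Uqcr11) well above WT1 and WT3. Uqcrc2, Uqcrfs1 and Uqcrb were not called. Uqcrc2, the other core protein, was at 94.6 to 97.3 CPM in WT, 95.2 to 96.4 in SA and 95.5 to 102 in SE, with a change of 0.04 in SE against SA, and Uqcrfs1, the Rieske iron-sulfur protein, of 0.06. Uqcrb, the fifth small subunit, had 0.19 ± 0.10 log2 (adjusted p = 0.260).

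Cycs, the somatic cytochrome c, was at 49.4, 43.9 and 47.5 CPM in WT, against 47.7, 49.9 and 44.7 in SA and 60.2, 59.9 and 50.9 in SE. Every SE library was above the 6 others, by 0.28 ± 0.08 log2 (adjusted p = 0.0490) over WT and 0.26 ± 0.08 log2 (adjusted p = 0.0395) over SA. Its call against WT was at the edge of the threshold. Cyct, the testis form, had 0 counts in all libraries.

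In complex IV, cytochrome c oxidase, 6 of 15 tested members were called in SE against SA and 1 in SE against WT, with medians of 0.18 and 0.15. The 6 calls in SE against SA are 40.0% of the tested members, against 10.2% of all genes. The single call in SE against WT, a higher one, is 6.67% of the tested members. Over all genes, 5.04% were called in either direction and 2.35% called higher. As it rests on 1 gene, nothing is read from this share. Cox7b, a small subunit, was the one called in both. It was at 68.4, 69.4 and 74.1 CPM in WT, against 70.7, 69.1 and 72.1 in SA and 83.1, 86.6 and 79.2 in SE. SE stood above both other groups without overlap, by 0.23 ± 0.06 log2 (adjusted p = 0.0375) over WT and 0.23 ± 0.06 log2 (adjusted p = 0.0235) over SA. Cox7a2, the broadly expressed form of subunit 7a, was at 64.5, 73.5 and 74.4 CPM in WT, against 70.6, 65.5 and 60.6 in SA and 81.5, 80.3 and 84.3 in SE, with 0.32 ± 0.07 log2 (adjusted p = 0.00812) in SE against SA and no overlap between those groups.

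Cox6a1, the non-muscle form of subunit 6a whose promoter is shown above, was at 174, 218 and 201 CPM in WT, against 183, 175 and 189.6 in SA and 219, 214 and 229 in SE. SE exceeded SA by 0.27 ± 0.07 log2 (adjusted p = 0.0216). Cox8a, the broadly expressed form of subunit 8, was at 152, 206 and 179 CPM in WT, against 151, 154 and 171 in SA and 185, 207 and 202 in SE, with a change of 0.32 ± 0.09 log2 (adjusted p = 0.0318), and Cox5b, a nuclear subunit that binds zinc, rose by 0.23 ± 0.07 log2 (adjusted p = 0.0329). WT2 lay within the range of SE for Cox6a1, Cox8a and Cox5b. Cox7c, a small membrane subunit, was at 74.8, 80.2 and 71.1 CPM in WT, against 67.9, 65.9 and 70.6 in SA and 78.0, 87.7 and 75.2 in SE. It had the smallest p of the complex in SA against WT, where its change was -0.14 ± 0.07 log2 (adjusted p = 0.394), and it was called in SE against SA (log2 change 0.24 ± 0.07, adjusted p = 0.0425).

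Cox4i1, the largest nuclear subunit, was the most abundant member of the whole set per kilobase, 497 CPM per kb, and was not called, with 0.17 ± 0.08 log2 (adjusted p = 0.179) in SE against SA. Ndufa4, at 59.98, 59.4 and 64.3 CPM in WT, against 58.0, 63.2 and 58.5 in SA and 67.1, 71.8 and 64.5 in SE, had 0.18 ± 0.07 log2 (adjusted p = 0.106), and Cox6b1, a subunit on the outer side of the complex, had 0.28 ± 0.09 log2 (adjusted p = 0.0511), just short of the threshold.

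Cox7a2l, the relative of subunit 7a that joins complexes III and IV into supercomplexes, had values in the other direction. It was at 213, 217 and 219 CPM in WT, against 205, 204 and 205 in SA and 201, 196 and 196 in SE. All 3 SE libraries were below all SA and WT libraries, with changes of -0.13 ± 0.05 log2 (adjusted p = 0.166) against WT and -0.05 ± 0.05 log2 (adjusted p = 0.616) against SA, neither past the threshold. SE libraries lay below those of the other group without overlap in 2 members in each SE comparison, Cox7a2l and Atp5s, against 10.4% of all genes in SE against WT and 14.1% in SE against SA.

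The tissue-specific partners of these subunits were low or at 0. Per kilobase, Cox6a2 and Cox7a1, the heart and muscle forms, were at 2.31 and 4.26 CPM per kb, against 351 for Cox6a1 and 110.5 for Cox7a2. Cox6b2, a testis form, was at 2.22 CPM per kb, against 239.6 for Cox6b1. None of the 3 was called, and Cox6a2 had the widest change of the members in SA against WT, 0.49 ± 0.29 log2 (adjusted p = 0.538). Cox4i2, Cox8b and Ndufa4l2 were detected with a mean of at most 0.125 CPM per kb and were not tested. Cox7b2 and Cox8c had 0 counts in all libraries, where 3 counts correspond to 0.120 to 0.176 CPM (counting error only). Cox6c, at 75.5, 66.2 and 72.8 CPM in WT, against 69.4, 74.4 and 65.2 in SA and 70.7, 80.3 and 66.7 in SE, and Cox5a, at 67.5, 89.0 and 83.1 CPM in WT, against 81.5, 82.8 and 85.1 in SA and 93.7, 93.1 and 92.5 in SE, completed the tested members of complex IV, neither called. Exons of Cox6c overlap Vps13b on the opposite strand (127 CPM).

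**Figure D3:**
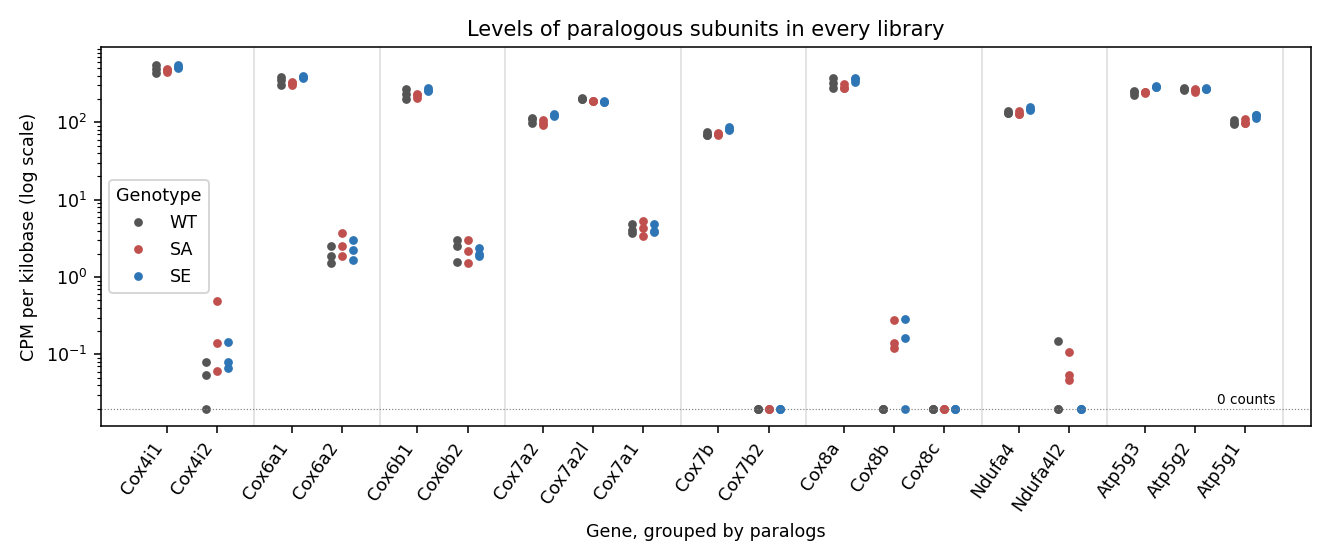
Level of paralogous subunits (x axis, grouped) in CPM per kilobase of transcript on a log scale (y axis). Each point is 1 library of WT, SA or SE, and points on the dotted line have 0 counts. Cox4i1, Cox6a1, Cox6b1, Cox7a2 and Cox8a lie far above their tissue-specific partners in all 9 libraries, and all 3 Atp5g genes are high.

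In complex V, the ATP synthase, 6 of 17 tested members were called in SE against SA and 3 in SE against WT, with medians of 0.14 and 0.12. These counts are 35.29% and 17.65% of those tested, against 10.2% and 5.04% of all tested genes called in either direction. Atp5b, the catalytic beta subunit and the member of this complex with the highest level per kilobase (433 CPM per kb), was at 736, 823 and 769 CPM in WT, against 801, 777 and 795 in SA and 927, 888 and 955 in SE. SE exceeded both groups without overlap, by 0.25 ± 0.06 log2 (adjusted p = 0.0157) over WT and 0.22 ± 0.06 log2 (adjusted p = 0.0195) over SA. Atp5a1, the alpha subunit that surrounds the rotor with beta, was at 679.8, 809 and 740.0 CPM in WT, against 728, 699.6 and 740.3 in SA and 819.5, 803 and 914 in SE. WT2 overlapped SE, and only the change against SA passed the threshold (0.23 ± 0.07 log2 (adjusted p = 0.0449), against 0.19 ± 0.07 log2 (adjusted p = 0.141) over WT). The other F1 subunits, Atp5c1 (gamma), Atp5d (delta) and Atp5e (epsilon), had changes of 0.11, 0.27 and 0.14 in SE against SA, none called.

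Atp5g1, Atp5g2 and Atp5g3 encode the same mature subunit c, which forms the rotor ring, and differ in their import sequences. Atp5g3 was at 159.5, 184 and 175 CPM in WT, against 170.0, 176 and 176 in SA and 204, 206 and 209 in SE. SE was above both other groups without overlap, by 0.26 ± 0.06 log2 (adjusted p = 0.0165) over WT and 0.25 ± 0.06 log2 (adjusted p = 0.0133) over SA. Atp5g1 was at 56.1, 64.1 and 58.1 CPM in WT, against 59.0, 59.0 and 65.7 in SA and 74.3, 67.7 and 74.3 in SE, with 0.28 ± 0.07 log2 (adjusted p = 0.0297) over WT and 0.24 ± 0.07 log2 (adjusted p = 0.0447) over SA. Atp5g2 was at 114, 121 and 118 CPM in WT, against 118, 109 and 115 in SA and 122, 121 and 120.1 in SE, and its changes were 0.04 and 0.08, neither called. Per kilobase, Atp5g2 (267) and Atp5g3 (258) were the abundant forms and Atp5g1 (108) the lesser one. Whether the 3 genes differ in their response was not tested.

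Of the small membrane subunits that shape synthase dimers, Atp5k (subunit e) was at 18.2, 23.5 and 19.0 CPM in WT, against 15.6, 12.8 and 18.5 in SA and 20.8, 27.1 and 23.2 in SE. Its change in SE against SA was the largest of all members, 0.60 ± 0.13 log2 (adjusted p = 0.00717), and it spread widely within each group, with SA2 lowest and SE2 highest. In SA against WT it had the smallest p of the complex (log2 change -0.36 ± 0.13, adjusted p = 0.179). Atp5j2 (subunit f) was at 86.4, 108 and 93.5 CPM in WT, against 86.9, 82.9 and 93.3 in SA and 106, 105 and 121 in SE, with 0.33 ± 0.08 log2 (adjusted p = 0.0149) in SE against SA. Atp5l (subunit g) and Atp5mpl had 0.16 and 0.12, not called.

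The 4 tested subunits of the peripheral stalk, which holds F1 still against the rotor, were not called in any comparison. Their changes in SE against SA ran from 0.05 (Atp5j) to 0.12 (Atp5f1), and in SE against WT from 0.08 (Atp5f1) to 0.19 (Atp5o). A second gene with the symbol Atp5o had 0 counts in all libraries. Atp5s, coupling factor B, was the lowest tested member of complex V at 2.1 CPM per kb. It was at 3.83, 3.28 and 3.16 CPM in WT, against 3.52, 3.26 and 3.13 in SA and 2.55, 2.50 and 2.83 in SE, and SE was below the other groups in every library without passing the threshold (log2 change -0.39 ± 0.16, adjusted p = 0.2003 against WT).

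Of the members called, 8 were called in both SE comparisons and 27 in either. Since both share the SE libraries, this is no independent agreement. Ndufa11, Cyc1, Uqcrh and Uqcrq were called in SE against SA under each of the 9 single libraries left out and all the other settings tried. The count of members called in SE against SA fell to 8 without SA1, 6 without SA2, 12 without SE1, 16 without WT3 or SA3 and 15 without SE3, and the median change stayed between 0.16 and 0.19.

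**Figure D4:**
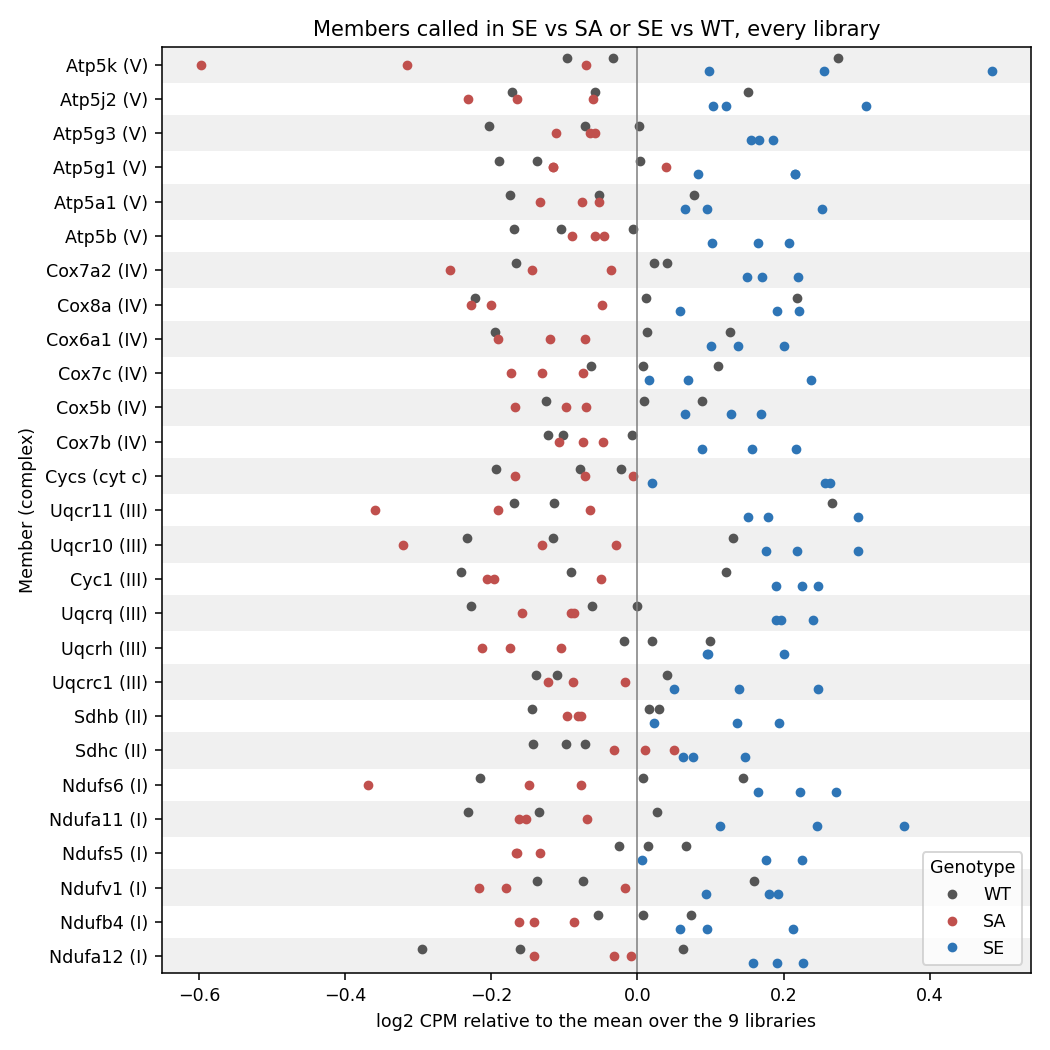
The 27 members called in SE against SA or SE against WT (y axis, with complex), as log2 CPM of each library relative to the gene's mean over the 9 libraries (x axis). Points are single libraries of WT, SA and SE. The SE points lie to the right of the SA points for all 27 members, and WT points spread between and across them.

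Members were short genes, with a median transcript length of 732 bases against 2556 over all tested genes, and change in SE went with length over all genes. In tested genes of at most 600 bases other than members, the median change in SE against SA was 0.05, and in those over 3000 bases it was -0.03. The 29 members of at most 600 bases had a median of 0.24, and the 12 members between 1000 and 1500 bases 0.13, against 0.04 for other genes of that length. In SE against WT the 29 shortest members had a median of 0.12, against 0.04 for other genes of that length. After a smooth trend of each library on length was taken out, the median over all members was 0.13 in SE against SA and 0.10 in SE against WT, with 14 and 6 members called. The 14 included Ndufa11, Cyc1, Uqcrh, Uqcrq, Uqcr10, Ndufs6, Atp5k and Atp5b, while Sdhb, Cox5b, Cox7c and Atp5g1 were no longer called in SE against SA.

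**Figure D5:**
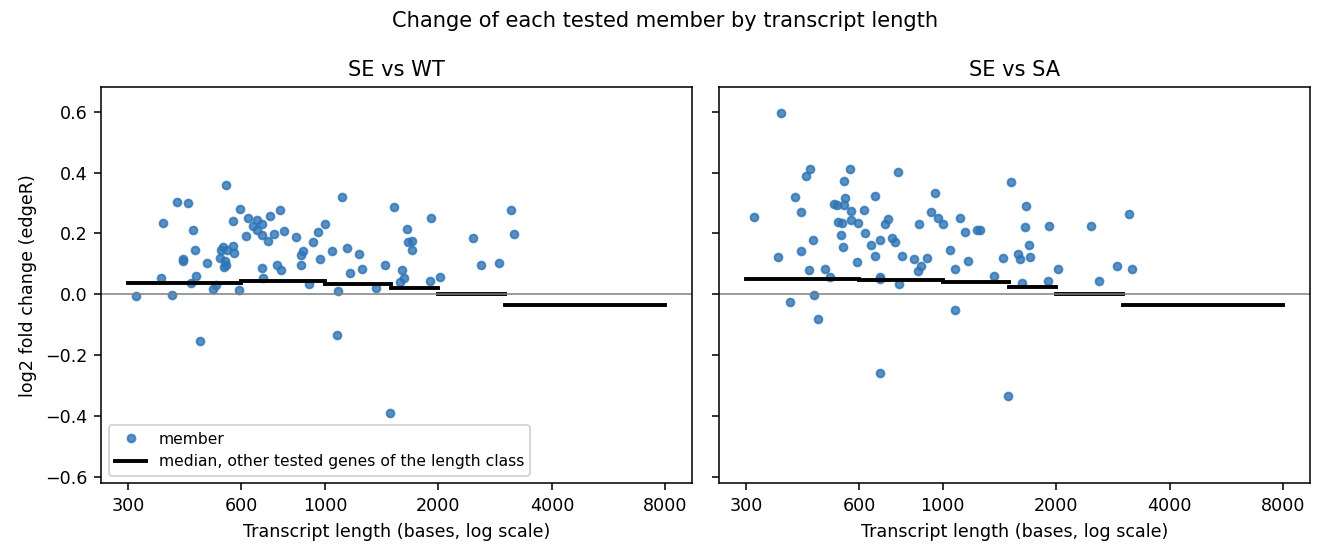
log2 fold change of each tested member (points, y axis) against the length of its transcript in bases (x axis, log scale), in SE against WT and SE against SA. Black lines are medians of the other tested genes in each length class. The members' points lie mostly above the lines at all lengths up to 3171 bases, the longest member, and the lines fall from 0.05 to -0.03 in SE against SA.

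Genes around the complexes were tested in the same fit. Of 17 assembly factors of complex I, Dmac1 was called higher in SA against WT (log2 change 0.25 ± 0.06, adjusted p = 0.0393) and Dmac2 lower in SE against SA (log2 change -0.24 ± 0.07, adjusted p = 0.0403). Each is 5.88% of the list, against 4.07% of all tested genes in SA against WT and 10.2% in SE against SA. The 4, 7, 21 and 5 tested assembly factors of complexes II, III with cytochrome c, IV and V held none that were called in any comparison. The smallest p of each list in SE against WT belonged to Sdhaf4 (-0.22), Uqcc2 (0.18), Cox18 (0.35) and Atpaf1 (-0.23). Medians of the 5 assembly lists in SE against SA were between 0.02 and 0.08, against 0.18 for the subunits. Ndufab1, a complex I subunit and acyl carrier protein whose symbol the rule does not take, had 0.19 ± 0.08 log2 (adjusted p = 0.219) in SE against WT.

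Of 19 genes of the TCA cycle and pyruvate entry, 2 were called higher in each SE comparison and 0 lower, 10.5% of the list. Over all tested genes, 5.04% were called in either direction and 2.35% called higher in SE against WT. In SE against SA, 10.2% were called in either direction and 4.77% called higher. Mdh2, which regenerates oxaloacetate, was at 139, 167 and 151 CPM in WT, against 158, 150.0 and 158 in SA and 187, 178 and 201 in SE, with 0.31 ± 0.07 log2 (adjusted p = 0.0126) over WT and 0.28 ± 0.07 log2 (adjusted p = 0.0140) over SA. Idh3a, of the NAD-dependent isocitrate dehydrogenase, rose over WT (log2 change 0.31 ± 0.06, adjusted p = 0.00721), and Suclg1, of succinyl-CoA synthetase, over SA (log2 change 0.21 ± 0.07, adjusted p = 0.0487). Suclg2, another subunit of succinyl-CoA synthetase, chosen after its values were seen, had the widest change of the list, -0.42 ± 0.15 log2 (adjusted p = 0.113) against WT and -0.42 ± 0.15 log2 (adjusted p = 0.0790) against SA, and was not called. Of 15 fatty acid oxidation genes, 1 was called in SA against WT and 1 in SE against SA. Each is 6.67% of the list, against 4.07% of all tested genes in SA against WT and 10.2% in SE against SA. Cpt1a, which admits fatty acids to mitochondria, was lower in SA than in WT (log2 change -0.25 ± 0.06, adjusted p = 0.0342), and Etfb, of the electron transfer flavoprotein, was higher in SE than in SA (log2 change 0.53 ± 0.16, adjusted p = 0.0374).

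Of 18 tested genes of mitochondrial biogenesis and mitochondrial DNA expression, 1 was called in each SE comparison (5.56%, against 5.04% of all tested genes over WT and 10.2% over SA). Pprc1, a coactivator of the PGC-1 family, was at 62.3, 68.5 and 63.2 CPM in WT, against 65.2, 63.5 and 60.2 in SA and 80.8, 77.1 and 85.1 in SE. Every SE library was above the 6 others, by 0.33 ± 0.07 log2 (adjusted p = 0.00657) over WT and 0.36 ± 0.07 log2 (adjusted p = 0.00157) over SA. Ppargc1a, the best known of that family, had 0 counts in all libraries. Nrf1, whose motif is shown above, had changes of 0.02 and 0.02, and Tfam, which packages mitochondrial DNA, of -0.03 and -0.12, none called. Among 16 carriers, channels and cristae genes, 2 were called higher and 0 lower in each SE comparison (12.5%). Over all tested genes, 5.04% were called in either direction and 2.35% called higher over WT. Over SA these shares were 10.2% and 4.77%. Slc25a5, the adenine nucleotide carrier that exchanges ADP for ATP, rose in SE over both groups (0.20 ± 0.06 log2 (adjusted p = 0.0447) and 0.21 ± 0.06 log2 (adjusted p = 0.0225)). Phb, a prohibitin, rose over WT (log2 change 0.31 ± 0.09, adjusted p = 0.0488), and Minos1, a cristae organiser, over SA (log2 change 0.23 ± 0.06, adjusted p = 0.0198). The 13 mitochondrially encoded subunits were listed at 0 counts in every library, as were all 37 mitochondrial genes, so the mitochondrially encoded part of complexes I, III, IV and V was not measured here.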

How the data were processed

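Raw read counts per gene were deposited by the authors, with 1 column for each of the 9 libraries. HISAT2 2.1.0, featureCounts and the build mm10 are named per the submitters' processing notes, while annotation release, strandedness and treatment of multi-mapped reads were not given in the sources used here. Such settings bear on members with pseudogene copies or overlapping genes: exons of 29 members overlap another gene, 5 on the same strand.

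Of 55401 gene IDs, 55141 matched GENCODE M21 (the same build, GRCm38) and 260 did not. A single fit took all 9 libraries (edgeR 4.0.16 in R 4.3.3): filterByExpr on genotype (minimum count 10, minimum total 15), TMM scaling, robust quasi-likelihood dispersions, genotype without covariates, 6 residual degrees of freedom, and 2-sided tests with Benjamini-Hochberg adjustment over 13501 genes. The script was tested on simulated data. Levels per kilobase use 1 transcript per gene, the shortest of those that APPRIS ranks as principal, and depend on that choice, most of all for Cycs, whose transcript is 3123 bases long. Promoter sequences are those of RefSeq for GRCm38.p6, matched by gene ID.

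The members, the lists and the alternatives were chosen with earlier results of these data known. Named were every member called in a comparison, per complex the most abundant per kilobase and those with the smallest p in SA against WT and SE against WT, the paralog groups, and per pathway list up to 2 called genes per direction or the smallest p in SE against WT. Other members are named beside these to complete a complex, and Ppargc1a, Nrf1, Tfam, Suclg2, Usmg5 and Ndufb1-ps were chosen after their values were seen. Alternatives were other scalings, DESeq2 1.42.0, other filters on low counts, only the 2 groups compared, the replicate number as a block, a length offset (lowess, span 0.3), each library left out, and the pairs WT2 with SE3 and WT1 with SE2 left out.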

Additional observations from a re-analysis of the deposited data

How the results depend on the processing

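Of 35 calls of single members (10 in SE against WT and 25 in SE against SA), 0 changed direction under any alternative. With each library left out in turn, the members called ran from 0 to 26 in SE against WT and from 6 to 34 in SE against SA, and were 0 throughout in SA against WT, while all genes called ran from 286 to 1085, from 787 to 1741 and from 289 to 635. The median changes of complexes I to V then ran from 0.09 to 0.15, 0.0756 to 0.19, 0.16 to 0.27, 0.07 to 0.19 and 0.11 to 0.15 in SE against WT, with 0.09 to 0.18 over all members. In SA against WT the complex I median ran from -0.0755 to -0.0167, complex II from -0.07 to 0.03 and complex V from -0.0422 to 0.0136, so that complexes II and V have no settled sign there. Without WT2 and SE3 the members called were 2 in SA against WT (both lower), 26 in SE against WT and 38 in SE against SA, all genes called were 884 and 1207 in the first 2, and the complex V medians were 0.014 and 0.16. Without WT1 and SE2, 1 member (Ndufa11) and 375 genes were called in SE against WT, with medians of 0.0848 over all members, 0.15 for complex III and 0.0436 for complex IV, and the complex I median in SA against WT was -0.0756. Fitting only the 2 groups compared gave 2 members in SE against WT, and no filter on low counts gave 2 lower in SA against WT. Library totals without TMM gave 15 in SE against SA, with a complex V median of 0.10. The median over all tested genes was then -0.048, against -0.0031 with TMM. TMM factors ran from 0.967 to 0.995 in SE and from 1.01 to 1.03 in SA. The length offset gave 6 members in SE against WT and 14 in SE against SA, with medians of 0.13 over all members, 0.23 for complex III and 0.0897 for complex V in SE against SA. The cause of these shifts was not tested.

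Replicate numbers did not pair the libraries: deviations of same-numbered libraries correlated between -0.195 and 0.105. With the replicate number as a block, 4 members were called in SE against WT, 19 in SE against SA and 0 in SA against WT. The block together with the length offset gave 3, 10 and 0, with medians of 0.23 for complex III and 0.0895 for complex V in SE against SA.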

Other observations

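Some genes of the complexes lie outside the rule that chose the members. Usmg5, a small membrane subunit of the ATP synthase (also called DAPIT), was at 40.9, 38.9 and 43.9 CPM in WT, against 38.1, 37.3 and 38.9 in SA and 46.1, 50.5 and 43.1 in SE. It was higher in SE than in SA by 0.29 ± 0.07 log2 (adjusted p = 0.0195 by edgeR's quasi-likelihood test), and its change against WT was 0.17 ± 0.07 log2 (adjusted p = 0.216). Ndufb1-ps, annotated as non-coding in GENCODE M21, was at 15.8, 15.4 and 16.4 CPM in WT, against 12.6, 12.4 and 13.3 in SA and 16.1, 19.4 and 15.1 in SE. SA was below the other groups in every library, with 0.40 ± 0.10 log2 in SE against SA (adjusted p = 0.0163) and -0.31 ± 0.10 log2 in SA against WT (adjusted p = 0.104). Of the other pattern matches that are not protein-coding, 2 were tested, the pseudogenes Ndufs6b and Ndufb4c, at a mean of 0.606 and 0.636 CPM, and neither was called.

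Of 77 tested mitochondrial ribosomal protein genes, which build the machinery that translates the mitochondrially encoded subunits, 66 had a change above 0 in SE against WT, with 2 called higher (2.597%, against 5.04% of all tested genes called) and a median of 0.09. In SE against SA 58 were above 0, with 3 called higher (3.896%, against 10.2%) and a median of 0.08. Of all tested genes, 2.35% were called higher in SE against WT and 4.77% in SE against SA. The share of these genes called higher is near the first value and below the second. Mrpl12 had the smallest p in SE against WT (adjusted p = 0.00298), and Mrps28 in SE against SA (adjusted p = 0.00787). Of 83 tested cytosolic ribosomal protein genes, edgeR called 0 in SE against WT. Before adjustment, p was under 0.05 there for 2 that were higher and 1 that was lower. In SE against SA 7 were called higher and 0 lower (8.43%, against 10.2% of all tested genes called and 4.77% called higher). The medians were 0.03 in SE against WT and 0.09 in SE against SA. In SA against WT 4 of the 83 were called lower and 0 higher, and the median was -0.05. The 4 are 4.82%, against 4.07% of all tested genes called and 2.1% called lower. Every SA library lay below every WT library in 14 of the 83 and above in 5, against 9.72% and 9.6% of all tested genes.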
